A study of Mus musculus with 18 samples.

Results

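Expression of the 7 genes that encode the inhibitors of cyclin-dependent kinases (CDK) was followed in mouse small cell lung cancer cells before and after restoration of p53. The members were the rows of the deposited expression table with the gene names Cdkn1a, Cdkn1b and Cdkn1c (the CIP/KIP family, 3 genes) and Cdkn2a, Cdkn2b, Cdkn2c and Cdkn2d (the INK4 family, 4 genes), 7 of the 25239 genes in the table. All 7 were found by these names. The 18 libraries came from the Type D lines named 4711-1, 4711-18 and 4716-11. Type D is the name for lines that die after p53 restoration. Each line had been derived from 1 tumour of a mouse with the alleles Trp53 XTR/XTR, Rb1 flox/flox, Rosa26 FlpO-ER and Rbl2 flox/flox, in which an adenovirus with Cre under the CMV promoter had deleted Rb1 and Rbl2 and trapped Trp53 in an unexpressed state, so all groups share these lesions. Each line carried Cas9 with sgBgal, a guide against the bacterial β-galactosidase gene that served as control, or with sgPpia#3.2 or sgPpia#4.1, guides against Ppia, the gene of cyclophilin A. Cells were treated for 72 h with vehicle (Control) or with 4-hydroxytamoxifen (4-OHT, Restored), which activates the FlpO-ER recombinase, removes the gene trap and returns p53 expression. This gave 6 conditions with 3 libraries each, 1 per cell line.

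The CDK inhibitors are small proteins that bind CDKs or their complexes with cyclins and slow the cell cycle. The CIP/KIP proteins p21 (Cdkn1a), p27 (Cdkn1b) and p57 (Cdkn1c) bind cyclin and CDK together and act mainly on the CDK2 complexes of the G1 to S transition, while the INK4 proteins p16 (Cdkn2a), p15 (Cdkn2b), p18 (Cdkn2c) and p19Ink4d (Cdkn2d) bind the monomeric D-type kinases CDK4 and CDK6, upstream of the retinoblastoma protein. Cdkn1a is the classical transcriptional target of p53. Cdkn2a also encodes p19Arf from another first exon and reading frame, and p19Arf stabilises p53 by binding MDM2. Small cell lung cancer typically lacks RB1 and p53, and cells without RB1 are known for high p16.

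The targeted genes followed the labels. Trp53 ranged from 5.45 to 8.41 TPM, a unit per transcript length and library, over the 9 Control libraries and from 181 to 236 TPM over the 9 Restored libraries. Ppia was 2709 ± 137 TPM (SD, n = 3) in sgBgal Control cells, 979 ± 287 with sgPpia#3.2 and 1783 ± 147 with sgPpia#4.1, so its transcript was reduced and not removed. In Restored cells Ppia was 2114 ± 591 TPM (1551 to 2730) with sgBgal, 958 ± 243 (769 to 1233) with sgPpia#3.2 and 1545 ± 309 (1191 to 1765) with sgPpia#4.1, and the ranges of sgBgal and sgPpia#4.1 overlapped. The whole-gene values of Rb1, 3.36 to 9.44 TPM in Control and 14.6 to 30.8 TPM in Restored cells, cannot show whether the deleted exon is present. Among the neuroendocrine markers that were checked, Chga stayed under 1 TPM in all libraries, while Syp (3.03 to 7.12 TPM) and Ncam1 (6.90 to 29.7 TPM) were detected throughout. The 5 fibroblast markers summed to at most 1.11 TPM. Of the 6 leukocyte and endothelial markers, only Cd68 passed the filter on low values, at 1.997 to 39.8 TPM, and it rose with all 3 sgRNAs, while Ptprc, Cd3e and Adgre1 stayed under 1 TPM. Relative depth, read from the steps between low values, spanned 1.00 to 1.78. The library of line 4711-18 with sgPpia#3.2 in Control stood apart, with 6.48% of tested genes at least 1 log2 unit away from the other 2 sgRNAs of the same line and state, against 0.327% to 2.89% in the other 17 libraries. Values without it are given beside the results that it moved most. In the comparisons of states and of sgRNAs they come from a fit with the cell line as a block, which keeps the lines balanced between the groups.

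RefSeq windows of 250 bases before an annotated start (build GRCm38.p6, from the reference and not from these libraries) were available for 6 of the 7 genes. They are shown for the member that rose, for the member with 2 separate first exons and for the member that fell. Cdkn1a has 2 annotated starts on the plus strand, at chr17:29090729-29090978 and chr17:29093519-29093768. In the upstream window the capitals mark a pair of CATG cores separated by 6 bases (CATGNNNNNNCATG), the letters at the heart of p53 response elements, and in the downstream window they mark GGGCGG, the GC box.
Cdkn1a upstream start: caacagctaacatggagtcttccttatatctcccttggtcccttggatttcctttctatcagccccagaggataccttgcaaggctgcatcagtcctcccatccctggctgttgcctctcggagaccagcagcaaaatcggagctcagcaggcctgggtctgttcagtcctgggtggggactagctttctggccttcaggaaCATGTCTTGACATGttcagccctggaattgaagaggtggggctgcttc
Cdkn1a downstream start: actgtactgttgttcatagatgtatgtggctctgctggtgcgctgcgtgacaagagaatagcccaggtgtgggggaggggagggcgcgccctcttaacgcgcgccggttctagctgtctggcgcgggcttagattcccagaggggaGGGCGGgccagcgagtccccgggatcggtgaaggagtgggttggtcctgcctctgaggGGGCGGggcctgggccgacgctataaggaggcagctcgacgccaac
The CATG pair lay 48 to 35 bases before the upstream start. It was found, on either strand, in 161 of 32851 windows (0.490%) and in no other window of the 6 members. Cdkn2a has 2 starts on the minus strand, at chr4:89294620-89294869 for the first exon of p19Arf and at chr4:89282193-89282442 for that of p16, and the single value of the gene in the table cannot separate these transcripts. Capitals mark TTTNNCGC, an E2F-type core that 4.28% of all windows hold.
Cdkn2a, p19Arf start: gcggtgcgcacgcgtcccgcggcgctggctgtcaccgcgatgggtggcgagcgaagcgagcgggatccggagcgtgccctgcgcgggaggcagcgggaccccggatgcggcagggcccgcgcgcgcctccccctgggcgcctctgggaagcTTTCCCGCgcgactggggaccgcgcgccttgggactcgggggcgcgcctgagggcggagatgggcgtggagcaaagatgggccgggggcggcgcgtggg
Cdkn2a, p16 start: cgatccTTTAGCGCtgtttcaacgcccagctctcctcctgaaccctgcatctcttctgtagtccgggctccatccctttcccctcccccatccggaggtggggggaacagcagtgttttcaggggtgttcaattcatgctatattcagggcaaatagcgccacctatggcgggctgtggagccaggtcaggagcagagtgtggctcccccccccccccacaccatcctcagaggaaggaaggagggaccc
In the window of Cdkn2d on the minus strand, chr9:21291210-21291459, capitals mark 3 GC boxes, of which the third reads in the opposite direction.
Cdkn2d: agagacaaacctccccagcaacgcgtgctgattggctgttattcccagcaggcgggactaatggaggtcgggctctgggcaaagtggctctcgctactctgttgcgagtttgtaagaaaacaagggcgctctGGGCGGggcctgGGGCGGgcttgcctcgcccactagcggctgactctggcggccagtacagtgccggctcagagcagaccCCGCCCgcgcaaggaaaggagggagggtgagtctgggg
GC boxes were in 32.7% of all windows, and also in that of Cdkn1b, in that of the p19Arf start of Cdkn2a and in 1 of the 2 windows of Cdkn2c, while the p16 window and the other window of Cdkn2c held none. The window of Cdkn2b held none of these 3 motifs, and TTTGAA, the CHR element, was searched as well and found only there among the members (15.99% of all windows). TTTGAA, TTTNNCGC and GGGCGG were read on both strands, and no match in the members overlapped a match of another motif. A match is a description of the letters and was not tested as a site.

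In Control cells the INK4 gene Cdkn2a was by far the most abundant member. Its TPM, which are per transcript length and so comparable between genes, ranged from 1240 to 1789 with a median of 1498 over the 9 libraries. Cdkn1b (149.7 to 283, median 172), Cdkn2b (123 to 378, median 141) and Cdkn1a (99.4 to 369, median 122) followed, and the ranges of these 3 genes overlapped. Cdkn2c (15.8 to 77.1, median 64.9) and Cdkn2d (34.6 to 57.7, median 47.5) were lower and overlapped each other as well. Cdkn1c was close to the limit of detection in both states, at 0.0354 to 1.05 TPM. In Restored cells Cdkn1a (1565 to 3806 TPM, median 2158) came first, above every value of Cdkn2a (787 to 1250, median 1120). The order of the others was Cdkn2b (155 to 359, median 218), Cdkn1b (108 to 212, median 144), Cdkn2c (15.5 to 57.6, median 40.7) and Cdkn2d (13.3 to 33.3, median 20.7), with neighbours overlapping except between Cdkn1b and Cdkn2c. The highest Control value of Cdkn1a was 171 TPM and the lowest of Cdkn2c 33.8 TPM without the library that stood apart.

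**Figure D1:**
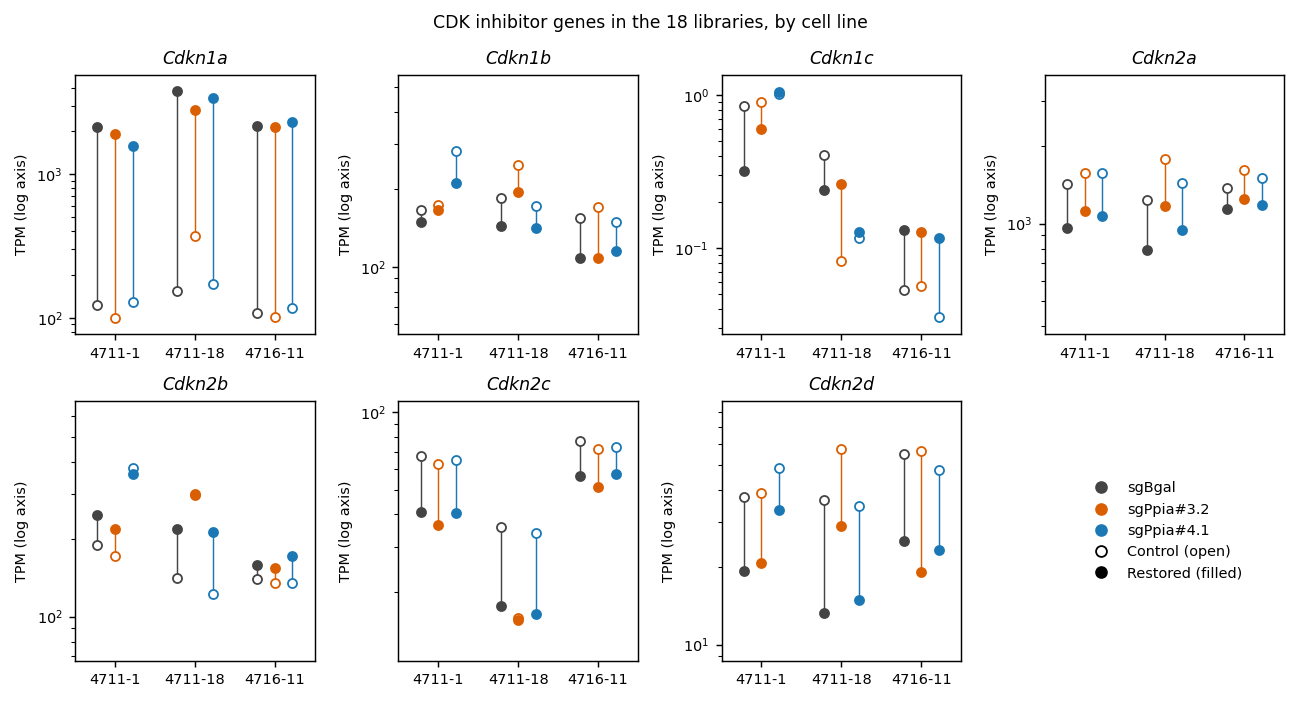
TPM (log axis) of each member in the 18 libraries, by cell line, with open circles for Control, filled circles for Restored and colours for the sgRNA; a line joins the libraries of the same cell line and sgRNA. All 9 Restored values of Cdkn1a (1565 TPM and more) sit above all 9 Control values (369 TPM and less), Cdkn2c is lowest in line 4711-18, and Cdkn1c stays near or under 1 TPM.

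The first question was how the members responded to p53 restoration in cells with each sgRNA. Cdkn1a was the only member that rose past the thresholds, and it did so with all 3 sgRNAs, while Cdkn2d fell past them with sgBgal and with sgPpia#3.2. In limma, a gene was called where its difference on the log2(TPM + 1) scale was 1 or more and its adjusted p (Benjamini-Hochberg) was under 0.05, and 6 of the 7 members passed the filter on low values and were tested, Cdkn1c being left out. With sgBgal, 1 of the 6 tested members was called higher against 5.46% of the 12828 tested genes, and 1 lower against 2.17%. With sgPpia#3.2 it was 1 higher against 4.44% and 1 lower against 1.31%, and with sgPpia#4.1 it was 1 higher against 4.30% and 0 lower against 1.79%. At an unadjusted p under 0.05 in limma, 2 of the 6 members (Cdkn2a and Cdkn2d) were lower with sgPpia#4.1, against 7.51% of the tested genes. The median difference of all tested genes was itself 0.19, 0.17 and 0.15 log2 with sgBgal, sgPpia#3.2 and sgPpia#4.1, and median-of-ratios rescaling, which moves it to about 0, turned the 701 higher and 279 lower genes with sgBgal into 480 and 391, those with sgPpia#3.2 from 570 and 168 into 415 and 243, and those with sgPpia#4.1 from 552 and 229 into 414 and 296. RNA of all cells in a culture was measured together, so a change in the make-up of the culture and a change of RNA per cell cannot be told apart.

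Cdkn1a, whose product p21 halts the cycle in G1, was 122, 154 and 107 TPM in the sgBgal Control libraries of lines 4711-1, 4711-18 and 4716-11 and 2125, 3806 and 2158 TPM in the Restored libraries. With sgPpia#3.2 it was 99.4, 369 and 101 TPM in Control and 1892, 2780 and 2124 TPM in Restored cells. With sgPpia#4.1 it was 129, 171 and 117 TPM in Control and 1565, 3386 and 2306 TPM in Restored cells. The states did not overlap with any sgRNA, and the sgPpia#3.2 Control library of line 4711-18 was the highest of the Control libraries. Restored cells were higher by 4.35 ± 0.43 log2 with sgBgal (SE, limma adjusted p = 1.8e-05), by 3.84 ± 0.43 with sgPpia#3.2 (adjusted p = 6.1e-05) and by 4.06 ± 0.43 with sgPpia#4.1 (adjusted p = 4.1e-05). Without the library that stood apart, the difference with sgPpia#3.2 was 4.26 log2. Within the 9 pairs of line and sgRNA the TPM ratio ran from 7.53 to 24.7 with a median of 19.7, the lowest being that of line 4711-18 with sgPpia#3.2. All 9 Restored libraries lay above all 9 Control libraries in 8.12% of the tested genes.

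The other CIP/KIP genes did not pass the thresholds. Cdkn1b, whose product p27 accumulates in resting cells and is controlled largely by protein turnover, was 169 ± 15.1 TPM in sgBgal Control cells and 134 ± 22.6 TPM in Restored cells (SD, n = 3). It was lower in the Restored library of all 9 pairs, by 0.07 to 0.66 log2, as were 12.8% of the tested genes. The fitted differences were -0.34, -0.36 and -0.36 log2 with the 3 sgRNAs, each with an SE of 0.29, and the limma adjusted p lay between 0.47 and 0.50. They were -0.53 to -0.56 log2 after rescaling, and that of Cdkn1b with sgPpia#3.2 was -0.22 log2 without the library that stood apart and that with sgPpia#4.1 -0.14 log2 without the sgPpia#4.1 Control library of line 4711-1, none of them called. Cdkn1c, the imprinted gene of p57, reached 1 TPM in 2 of 18 libraries. Its TPM were whole multiples of 1 step within 0.03 of a step once relative depth was taken out, from 4 to 128 steps per library, so the lowest values rest on few reads if a step is 1 read. It was highest in line 4711-1, at 0.930 ± 0.088 TPM in the Control libraries of the 3 sgRNAs, against 0.203 ± 0.180 in 4711-18 and 0.048 ± 0.011 in 4716-11, and it was higher in the Restored library of 6 of 9 pairs.

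Among the INK4 genes, 3 were lower in the Restored library of all 9 pairs and 1 was not. Cdkn2d, the gene of p19Ink4d, was 37.5, 36.5 and 55.0 TPM in the sgBgal Control libraries of lines 4711-1, 4711-18 and 4716-11 and 19.3, 13.3 and 25.2 TPM in the Restored libraries. With sgPpia#3.2 it was 39.0, 57.7 and 56.5 TPM in Control and 20.7, 29.0 and 19.2 TPM in Restored cells, and with sgPpia#4.1 48.5, 34.6 and 47.5 TPM against 33.3, 14.9 and 23.4 TPM. The highest Restored value, 33.3 TPM, lay just under the lowest Control value, 34.6 TPM, a separation that 3.06% of the tested genes showed in this direction. Cdkn2d fell by 1.14 ± 0.30 log2 with sgBgal (SE, limma adjusted p = 0.022) and fell by 1.12 ± 0.30 with sgPpia#3.2 (adjusted p = 0.028). With sgPpia#4.1 the difference of -0.89 ± 0.30 did not pass (adjusted p = 0.075). The call with sgBgal was lost when any line was left out (limma adjusted p = 0.10, 0.063 and 0.15 without 4711-1, 4711-18 and 4716-11), and that with sgPpia#3.2 when 4711-1 or 4716-11 (0.13 and 0.32) was left out. Without the library that stood apart the latter difference was -0.90 log2 (limma adjusted p = 0.039 with the block), under the fold needed. With the cell line as a block the adjusted p of limma was 0.0057, 0.0078 and 0.024 for sgBgal, sgPpia#3.2 and sgPpia#4.1.

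Cdkn2a, the source of p16 and p19Arf, was 1425, 1240 and 1380 TPM in the sgBgal Control libraries of lines 4711-1, 4711-18 and 4716-11 and 962, 787 and 1136 TPM in the Restored libraries. With sgPpia#3.2 the mean was 1661 ± 114 TPM in Control and 1179 ± 65.6 TPM in Restored cells, and with sgPpia#4.1 it was 1500.2 ± 66.0 and 1063 ± 120 TPM (SD, n = 3). The Restored library was lower in all 9 pairs, at 0.634 to 0.824 of the Control TPM. The fitted differences were alike in size, -0.50, -0.49 and -0.50 log2 with an SE of 0.15, and had limma adjusted p-values of 0.038, 0.0503 and 0.045, so none reached the difference of 1 log2 that a call needed. At an adjusted p under 0.05 and any fold, 3.96%, 2.39% and 3.14% of the tested genes were lower with sgBgal, sgPpia#3.2 and sgPpia#4.1. With the cell line as a block all 3 adjusted p-values of Cdkn2a were under that level (0.0051, 0.0071 and 0.0061 in limma). They lay above it, at 0.12 to 0.29, when any 1 line was left out, and at 0.19 to 0.20 when only the compared groups were fitted.

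Cdkn2c, the gene of p18, was 67.7, 35.8 and 77.1 TPM in the sgBgal Control libraries of lines 4711-1, 4711-18 and 4716-11 and 40.8, 17.6 and 56.6 TPM in the Restored libraries. With sgPpia#3.2 it was 62.8, 15.8 and 71.8 TPM in Control and 36.5, 15.5 and 51.2 TPM in Restored cells, and with sgPpia#4.1 64.9, 33.8 and 73.0 TPM against 40.7, 16.5 and 57.6 TPM. Line 4711-18 had the lowest value in each of the 6 conditions, and the states overlapped. The fitted differences of -0.71, -0.42 and -0.66 log2 (SE 0.64) had limma adjusted p-values of 0.51, 0.76 and 0.58. With the cell line as a block the SE fell to 0.18 and the adjusted p to 0.0073 with sgBgal and 0.013 with sgPpia#4.1, and it was 0.087 with sgPpia#3.2, where the difference without the library that stood apart was -0.68 log2 (adjusted p = 0.0065). Cdkn2b, the gene of p15 and neighbour of Cdkn2a on chromosome 4, was the tested member without a common direction. It was higher in the Restored library of 7 of 9 pairs and lower in that of line 4711-1 with sgPpia#4.1 (378 against 359 TPM) and of line 4711-18 with sgPpia#3.2 (301 against 296 TPM), the pairs with the highest Control values. Its fitted differences were 0.40, 0.17 and 0.36 log2 (SE 0.42, limma adjusted p of 0.59 to 0.87), of which that with sgPpia#3.2 became -0.03 after rescaling and 0.53 without the library that stood apart. That with sgPpia#4.1 was 0.77 log2 without the sgPpia#4.1 Control library of line 4711-1 (limma adjusted p = 0.058 with the block).

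**Figure D2:**
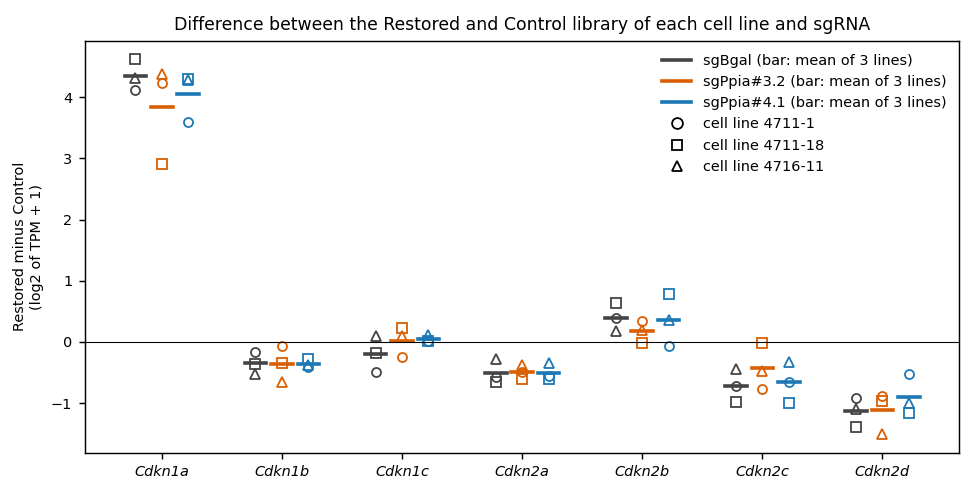
Difference in log2(TPM + 1) between the Restored and the Control library of each cell line (symbol) and sgRNA (colour) for the 7 members, with bars for the mean of 3 lines. Cdkn1a sits between 2.91 and 4.62 in all 9 pairs, Cdkn1b, Cdkn2a, Cdkn2c and Cdkn2d are below 0 in all 9, and Cdkn1c and Cdkn2b lie on both sides of 0.

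Higher values in 9 of 9 pairs, as for Cdkn1a, were seen in 30.8% of all tested genes. Compared gene by gene over 3 against 3 libraries, Cdkn1a, Cdkn2a and Cdkn2d reached p = 0.10 with all 3 sgRNAs and Cdkn1b with sgBgal alone in a two-sided exact permutation test, which is the smallest p this design allows (0.21 after Benjamini-Hochberg adjustment over 21 tests), and it cannot reach 0.05. Cdkn1c, Cdkn2b and Cdkn2c did not reach it with any sgRNA.

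The summed levels followed their largest members. Over the 9 libraries of a state the CIP/KIP genes together had a median of 289 TPM in Control (262 to 617) and 2275 TPM in Restored cells (1778 to 3951), and the INK4 genes 1754 TPM (1453 to 2164) and 1396 TPM (1036 to 1508). Cdkn1a made up 4.69% to 13.3% of the transcripts of the 7 genes in Control (at most 8.66% without the library that stood apart) and 47.7% to 76.3% in Restored cells, while Cdkn2a went from 63.4% to 75.2% in Control to 15.8% to 33.7% in Restored cells. The kinase genes Cdk1, Cdk2, Cdk4 and Cdk6 summed to a median of 845 TPM in Control (738 to 995) and 645 TPM in Restored cells (604 to 759), most of it Cdk4. There were 0.311 to 0.836 CIP/KIP transcripts per CDK transcript in Control and 2.94 to 6.32 in Restored cells, without overlap, and without the library that stood apart the highest Control value was 0.522. For Cdkn2b, Cdkn2c and Cdkn2d together the ratio to the same kinase sum was 0.192 to 0.621 and 0.311 to 0.718, and the states overlapped. That kinase sum includes Cdk1 and Cdk2, whose products the INK4 proteins do not bind. Cdkn2a, whose value also covers p19Arf, was left out of this ratio. These sums were not tested.

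**Figure D3:**
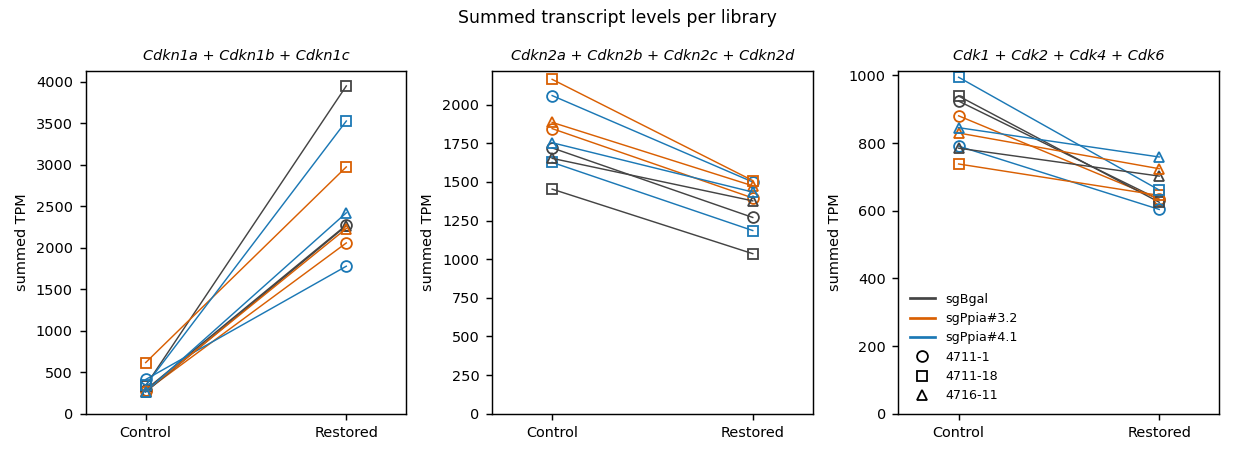
Summed TPM per library of the CIP/KIP genes, of the INK4 genes and of Cdk1, Cdk2, Cdk4 and Cdk6 (vertical axes from 0) in Control and Restored cells, with lines joining the libraries of the same cell line and sgRNA. The CIP/KIP sum goes from at most 617 to at least 1778 TPM, and the INK4 sum is lower in the Restored library of every pair.

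The partners of these inhibitors were described by lists chosen with earlier results of these data known. Of 13 CDK and cyclin genes, 12 were tested, and 4 were called lower with each sgRNA, against 2.17%, 1.31% and 1.79% of all tested genes with sgBgal, sgPpia#3.2 and sgPpia#4.1. The list had 1 gene called higher, Ccnd1, a D-type cyclin, with sgPpia#3.2 (1.14 log2, against 0.76 and 0.91 with sgBgal and sgPpia#4.1), and their median difference was 0.01, 0.01 and -0.08 log2 against 0.19, 0.17 and 0.15 for all tested genes. The 4 that fell with all 3 sgRNAs were genes of the late cell cycle. Ccnb2, a mitotic cyclin, went from a median of 171 TPM (84.4 to 181) to 29.0 TPM (5.72 to 46.99), and Ccna2, the cyclin of S phase and G2, from 75.1 TPM (44.1 to 150) to 11.3 TPM (4.31 to 20.1). Ccnb1 fell by 2.74 and Cdk1 by 1.89 log2 with sgBgal (limma adjusted p = 0.0047 and 0.0069). Cdk4, the main INK4 partner in these cells, was 713 TPM in Control and 573 TPM in Restored cells at the median and was not called with any sgRNA, nor was Ccnd2 (122 and 174 TPM).

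Among 13 pocket protein and E2F genes, 1 was called higher with each sgRNA and 0 lower, against 5.46%, 4.44% and 4.30% of all tested genes called higher with sgBgal, sgPpia#3.2 and sgPpia#4.1. The median difference of the list was 0.21, 0.24 and 0.14 log2 beside 0.19, 0.17 and 0.15 for all tested genes. The gene called was Rb1 itself, which rose by 1.78, 1.72 and 1.69 log2 with sgBgal, sgPpia#3.2 and sgPpia#4.1 (limma adjusted p = 0.0068, 0.010 and 0.011), and the abundant Tfdp1 (275 and 362 TPM) and E2f4 (94.98 and 71.0 TPM) were not called. Among 12 genes that control the turnover of p21 and p27 proteins, Cks1b, the cofactor by which SKP2 recognises p27, was called lower with all 3 sgRNAs, against 2.17%, 1.31% and 1.79% of all tested genes called lower. The median difference of this list was 0.13, 0.18 and 0.11 log2. Cks1b went from a median of 408 TPM (334 to 597) to 173 TPM (145 to 201), and the other 11, Pcna and Ddb1 included, were not called. Of 12 polycomb genes, known as repressors of the Cdkn2a locus, Eed was called higher with sgBgal (1.06 log2, against 0.93 and 0.85 with sgPpia#3.2 and sgPpia#4.1, which were under the fold needed), 1 of 12 against 5.46% of all tested genes, and none with the other guides. The median difference of the polycomb list was 0.19, 0.21 and 0.16 log2, and Ezh2 (92.2 and 110 TPM) and Suz12 (49.8 and 46.5 TPM) were not called. Of 12 transcriptional activators of CDK inhibitor genes only Trp53 was called, higher with each sgRNA (against 5.46%, 4.44% and 4.30% of all tested genes), and their median difference was 0.68, 0.55 and 0.55 log2, Klf4 (165 and 234 TPM) and Ets2 (89.9 and 135 TPM) being the most abundant that were not called.

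The second question was whether cells with a guide against Ppia differed from sgBgal cells in these genes. No member was called with sgPpia#3.2 or sgPpia#4.1, in Control or in Restored cells, and neither was any of the 12828 tested genes (0%). Ppia, the target of the guides, was among the genes not called, though its Control mean was 2709 TPM with sgBgal and 979 TPM with sgPpia#3.2. The absence of a call in this fit therefore does not show that a gene was unchanged. With the cell line as a block, 2 genes in Control and 1 in Restored cells were called with sgPpia#3.2, none of them a member, and 0 with sgPpia#4.1. At an unadjusted p under 0.05 the limma fits held 311 and 27 genes in Control and 154 and 68 in Restored cells with sgPpia#3.2 and sgPpia#4.1, and 0 of the 6 tested members. With the block these were 1628 and 162 genes in Control and 1108 and 424 in Restored cells, with 2 members in Control (Cdkn2a and Cdkn2c) and 1 in Restored cells (Cdkn2a) with sgPpia#3.2 and 0 with sgPpia#4.1. Without the library that stood apart, the count with sgPpia#3.2 in Control was 1092 genes and 0 members. For Cdkn1a the differences from sgBgal in Restored cells were -0.21 log2 with sgPpia#3.2 (95% confidence interval -1.14 to 0.71) and -0.17 log2 with sgPpia#4.1 (-1.10 to 0.75), so a lower level by up to about 1 log2 lay within these intervals of the fit without a block. Within lines 4711-1, 4711-18 and 4716-11 they were -0.17, -0.45 and -0.02 log2 with sgPpia#3.2. With sgPpia#4.1 they were -0.44, -0.17 and 0.10 log2. In Control cells the differences of Cdkn1a were 0.30 log2 (-0.63 to 1.22) and 0.12 log2 (-0.81 to 1.04), and the first became -0.13 log2 without the library that stood apart. The second became -0.016 log2 without the sgPpia#4.1 Control library of line 4711-1, with the cell line as a block. Cdkn2a had the narrowest intervals. It was higher than in sgBgal cells in each of the 3 lines with either guide and in either state. The share of all tested genes with such agreement was not counted. The differences of Cdkn2a were 0.30 (-0.02 to 0.62) and 0.16 log2 (-0.16 to 0.47) in Control with sgPpia#3.2 and sgPpia#4.1. In Restored cells they were 0.31 (-0.01 to 0.63) and 0.15 log2 (-0.17 to 0.47). That with sgPpia#3.2 in Control was 0.18 log2 without the library that stood apart. All these comparisons share the sgBgal libraries, and with the cell line as a block the lowest adjusted p of any member was 0.35 (Cdkn2a, sgPpia#3.2, Control).

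**Figure D4:**
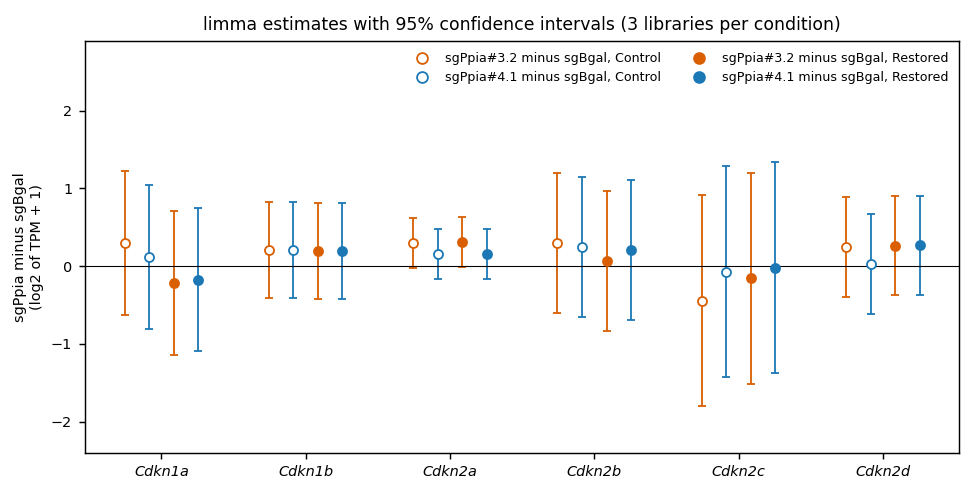
Difference in log2(TPM + 1) between cells with sgPpia#3.2 (orange) or sgPpia#4.1 (blue) and sgBgal cells, in Control (open) and Restored cells (filled), as limma estimates with 95% confidence intervals for the 6 tested members. All intervals include 0, those of Cdkn2a are the narrowest and those of Cdkn2c the widest.

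The responses to restoration were also compared between sgRNAs. The response of Cdkn1a differed from that in sgBgal cells by -0.51 log2 with sgPpia#3.2 (95% confidence interval -1.82 to 0.80) and by -0.29 log2 with sgPpia#4.1 (-1.60 to 1.02), both with a limma adjusted p of 1.00, and the former became -0.089 log2 without the library that stood apart. The latter became -0.16 log2 without the sgPpia#4.1 Control library of line 4711-1, with the cell line as a block. No member and 0% of the tested genes had a different response at an adjusted p under 0.05, with 31 and 18 genes and 0 members at an unadjusted p under 0.05 in limma (175 and 80 genes and 0 members with the block). With all libraries the differences in response of the other tested members were at most 0.29 log2 in size. Without the library that stood apart that of Cdkn2c with sgPpia#3.2 went from 0.29 to 0.038 log2, and without the sgPpia#4.1 Control library of line 4711-1 that of Cdkn2b with sgPpia#4.1 went from -0.041 to 0.37 log2, neither of them called.

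The third question was how the cell lines differed in Control cells, with the 3 sgRNAs of a line as its libraries. These libraries share a tumour of origin, so the p-values measure the spread within a line. With all libraries, Cdkn2c was the only one of the 6 tested members that was called between lines. Cdkn1c, under the filter, also differed between lines when no filter was used, with differences of -0.69 and -0.88 log2 for 4711-18 and 4716-11 against 4711-1 (limma adjusted p = 0.0015 and 0.00036), less than the 1 log2 of a call. Cdkn2c was 65.1 ± 2.5 TPM in 4711-1, 28.5 ± 11.0 TPM in 4711-18 and 73.9 ± 2.8 TPM in 4716-11 (SD, n = 3). For Cdkn2c the 3 libraries of 4711-18 lay below all others in both states, a separation that was not counted over all tested genes. It was lower in 4711-18 than in 4711-1 by 1.25 ± 0.20 log2 (limma adjusted p = 0.00019) and higher in 4716-11 than in 4711-18 by 1.43 ± 0.20 log2 (adjusted p = 5.9e-05), and 0.18 ± 0.20 log2 separated 4716-11 from 4711-1 (adjusted p = 0.54). That was 1, 0 and 1 of 6 members called against 9.03%, 6.38% and 8.58% of the tested genes, for 4711-18 against 4711-1, 4716-11 against 4711-1 and 4716-11 against 4711-18. Without the library that stood apart the first difference was -0.88 log2, short of the fold needed for a call (adjusted p = 5.4e-06), and the last was 1.06 log2.

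Cdkn1a was 117 ± 15.5 TPM in Control cells of 4711-1, 231 ± 120 TPM in 4711-18 and 109 ± 7.9 TPM in 4716-11. The difference of 4711-18 from 4711-1, 0.87 ± 0.24 log2, and that of 4716-11 from 4711-18, -0.97 ± 0.24 log2, had limma adjusted p-values of 0.011 and 0.0059 but were under 1 log2. At this level and any fold, 33.5%, 28.9% and 34% of the tested genes differed in the same 3 comparisons. Without the library that stood apart these differences were 0.48 and -0.57 log2, while they passed 1 log2 and were called without sgBgal (1.14 and -1.20) or sgPpia#4.1 (1.11 and -1.18). Cdkn1a was also highest in 4711-18 among Restored cells, at 3324 ± 516 TPM against 1861 ± 281 in 4711-1 and 2196 ± 96.7 in 4716-11. Cdkn1b, Cdkn2a, Cdkn2b and Cdkn2d did not pass an adjusted p of 0.05 between any lines with all libraries. Without sgPpia#3.2, Cdkn2b was called lower in 4711-18 than in 4711-1 (-1.02 log2, limma adjusted p = 0.021) and Cdkn2c was not (-0.91 log2). The values of Cdkn2b behind that call were 190 TPM (sgBgal) and 378 TPM (sgPpia#4.1) in 4711-1. In 4711-18 they were 141 and 123 TPM, so the call leaned on the sgPpia#4.1 Control library of 4711-1. Cdkn2a had the closest line means, at 1521 ± 83.2, 1488 ± 278 and 1500.01 ± 121 TPM in 4711-1, 4711-18 and 4716-11.

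The response to restoration did not differ between lines for any member at an adjusted p under 0.05, against 2.1%, 1.47% and 2.52% of the tested genes for 4711-18 against 4711-1, 4716-11 against 4711-1 and 4716-11 against 4711-18, and 0 members had an unadjusted p under 0.05 in limma. Without the library that stood apart the fall of Cdkn2c was smaller in 4716-11 than in 4711-18 by 0.62 log2 (adjusted p = 0.0095), against 0.25 log2 with all libraries (adjusted p = 0.75).

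Departures of a member by more than 1 log2 from the other sgRNAs of its line and state were found in a pair of libraries. In the Control library of 4711-18 with sgPpia#3.2, Cdkn1a was 1.18 and Cdkn2b 1.19 log2 above the mean of the other 2 sgRNAs, Cdkn2d was 0.68 above it, and Cdkn2c was 1.09 log2 below it. Cdkn1b was 0.47 and Cdkn2a 0.42 log2 above the mean of the other 2 sgRNAs. For Cdkn1a and Cdkn2c the departure ran in the direction of the difference between the Restored and Control libraries. That of Cdkn2b ran in the direction of 7 of 9 pairs. For Cdkn1b, Cdkn2a and Cdkn2d it ran against the difference. In the Restored library of the same cells Cdkn2d was 0.99, Cdkn2b 0.46, Cdkn1b 0.44 and Cdkn2a 0.44 log2 above the other sgRNAs. Cdkn1a was 0.37 and Cdkn2c 0.13 log2 below them there. In the Control library of 4711-1 with sgPpia#4.1, Cdkn2b was 1.06 and Cdkn1b 0.73 log2 above the other 2 sgRNAs, and the Restored library of the same cells was above them as well, by 0.62 and 0.43 log2. Without the Control library of 4711-18 with sgPpia#3.2 the difference of Cdkn2c between sgPpia#3.2 and sgBgal Control cells went from -0.45 to -0.19 log2. Without the Control library of 4711-1 with sgPpia#4.1 that of Cdkn2b between sgPpia#4.1 and sgBgal Control cells went from 0.25 to -0.17 log2. Both come from fits with the cell line as a block. Trp53 stayed within 5.45 to 8.41 TPM in all Control libraries, these included. In line 4716-11 no member departed by more than 0.32 log2.

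**Figure D5:**
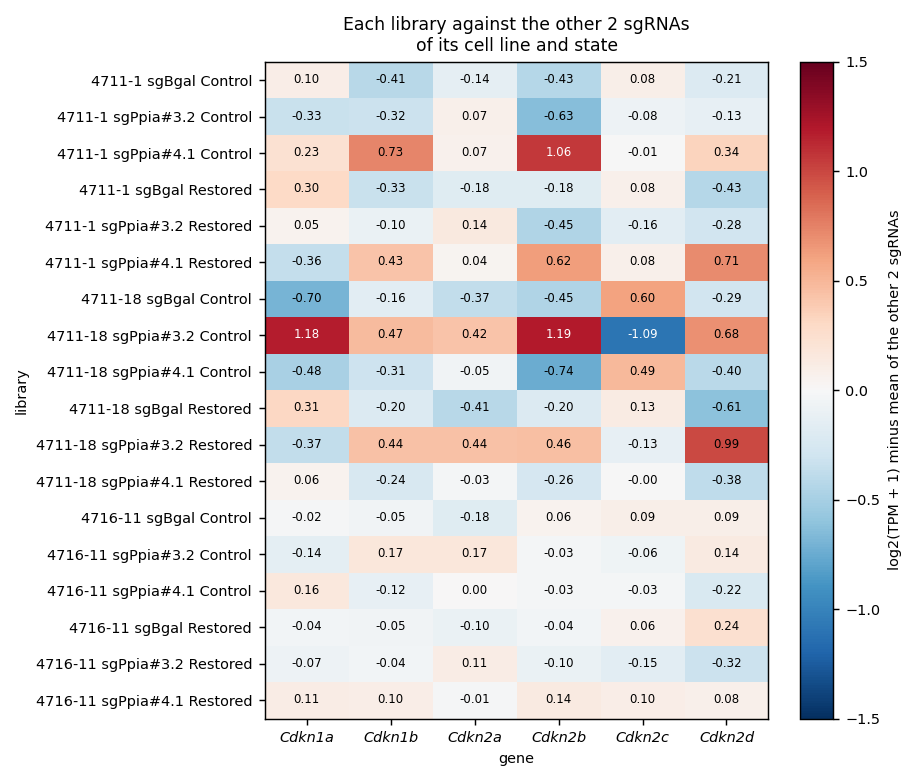
Departure of each library from the mean of the other 2 sgRNAs of the same cell line and state, in log2(TPM + 1), for the 6 tested members (red above, blue below, values printed). Departures over 1 are only in the Control library of 4711-18 with sgPpia#3.2 and the Control library of 4711-1 with sgPpia#4.1, and those of line 4716-11 stay within 0.32.

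The tested genes with the most similar pattern over the 18 libraries were named for each member by Pearson's r of log2(TPM + 1), as a description, since the libraries share cell lines and the treatment. For Cdkn1a they were Ak1 (r = 0.992), Celf5 (0.988) and 2310022A10Rik (0.988), and for Cdkn1b Sinhcaf (0.930), Thap11 (0.925) and Sertad3 (0.919). Cdkn2a went most closely with genes of ribosomal proteins, Rplp0 (0.938), Rpl27a (0.936) and Rpl32 (0.920). The nearest genes to Cdkn2b were Rara (0.949), Tor4a (0.939) and Zfp7 (0.934), to Cdkn2c S100a4 (0.971), Maob (0.958) and Cfl1 (0.951), and to Cdkn2d Ldha (0.948), Tmco6 (0.948) and Mrm3 (0.943). Among the members themselves the highest value was 0.89 between Cdkn2a and Cdkn2d and the lowest -0.85 between Cdkn1a and Cdkn2d, so no member was among the nearest genes of another.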

How the data were processed

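RNA of the 18 libraries was sequenced as described by the study, and the table the authors deposited gives a TPM value (scaled by transcript length and library) for each of 25239 genes and 18 libraries. The submitters' processing notes name bcl2fastq 2.17 and HISAT2 and both mm10 and GRCm39, and the counter and annotation are not given in the sources used here. Since such values carry no read total, depth is known only relative to the shallowest library and counting intervals could not be given. Columns were matched to libraries by cell line, sgRNA and treatment. The 7 members and all gene lists were chosen with earlier results of these data known.

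From the deposited TPM, log2(TPM + 1) was fitted with limma 3.58.1 (R 4.3.3) for 12828 genes (those reaching 1 TPM in 3 or more libraries), with 1 mean per condition, or per line and state for comparisons of lines, and Benjamini-Hochberg adjustment over all tested genes. Differences on this scale understate the change of low genes. The fit was tested on simulated data, in which 200 of 12828 genes were changed by 2 log2. It recovered 81.5% with 8 false calls for the restoration response in sgBgal cells and 99% with 2 false calls for 4711-18 against 4711-1. The simulated noise was independent between libraries and smaller changes were not simulated. These rates therefore do not carry over to libraries that deviate together by line or to the smaller differences of most members. The pairing comes from the cell line in the labels. Libraries of the same line deviated together from the condition means (mean r = 0.73 across genes, lowest 0.58, over 45 pairs, against -0.36 between lines), so a fit with the line as a block was added. Exact permutation tests used scipy 1.17.1.

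All 7 members were named. From each pathway list up to 4 genes called with all 3 sgRNAs (largest mean difference) and up to 2 not called with any (highest mean TPM) were named, with Trp53, Ppia, Rb1 and Rbl2 as checks and, for each tested member, the 3 genes with the highest r. The fits were repeated with 0.1 as pseudocount, after rescaling by median-of-ratios factors, with other filters on low values, with trended robust eBayes, with blocks, with only the compared groups, and leaving out each line or sgRNA. Leaving out either library with departing members, without and with the cell line as a block, was chosen after seeing the data. Rbl2 was 1.98 to 4.14 TPM in Control and 3.89 to 6.66 TPM in Restored cells. Promoter windows came from RefSeq (GRCm38.p6), protein sequences were not used here, and the study's other experiments were not analysed here. Not every marker that was checked is reported here.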

Additional observations from a re-analysis of the deposited data

How the results depend on the processing

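The rise of Cdkn1a held with every sgRNA under all alternatives. The count of members called with sgBgal and with sgPpia#3.2, 2 each, became 1 when only the compared groups were fitted, and with sgPpia#3.2 also without the library of 4711-18 with sgPpia#3.2 in Control (1 with the cell line as a block too). Leaving out 1 line gave 1 to 1 with sgBgal and 1 to 2 with sgPpia#3.2, each time through the loss of Cdkn2d. Without that library the members called between 4711-18 and 4711-1 in Control went from 1 to 0 and the members with a different response in 4716-11 and 4711-18 from 0 to 1. Leaving out 1 sgRNA gave 1 to 2 called members for 4711-18 against 4711-1 and for 4716-11 against 4711-18, since Cdkn1a passed 1 log2 without sgBgal or sgPpia#4.1, and without sgPpia#3.2 the former call was Cdkn2b in place of Cdkn2c. The ratio of INK4 medians, Restored to Control, was 0.796, with 0.684 after rescaling and 0.748 to 0.826 with 1 line left out.

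Directions changed only for differences that were not called. After rescaling, Cdkn2b with restoration in sgPpia#3.2 cells became -0.031 and Cdkn1a in Control cells of 4716-11 against 4711-1 became 0.014 log2 (from -0.10). With 1 line left out, the difference of Cdkn1a between sgPpia#3.2 and sgBgal ran from -0.19 to 0.59 in Control and that of its response from -0.83 to 0.091, the sign changing without line 4711-18, and without the library that stood apart they became -0.33 and 0.11, and Cdkn2c in Control became 0.23. Leaving out a library also takes a line from 1 arm, and with the cell line as a block the 3 values were -0.13, -0.089 and -0.19, the last 2 without a change of sign. Cdkn2b between sgPpia#4.1 and sgBgal Control cells ran from -0.13 (without 4711-1) to 0.47, and was -0.27 without the sgPpia#4.1 Control library of 4711-1 (-0.17 with the block, where Cdkn1a became -0.016 from 0.12).

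The cell line as replicate block left the number of called members at 2, 2 and 1 for the restoration responses, and changed no other call of a member. It raised the count of all genes called with sgPpia#4.1 from 781 to 1177. Depth could not be weighed beyond its relative values. Cdkn1c was under the filter on low values, and without a filter it was not called in any comparison, though its differences of 4711-18 and 4716-11 from 4711-1 had limma adjusted p-values of 0.0015 and 0.00036.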
